A study of Mus musculus with 10 samples.

Results

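The mitochondrially encoded genes are the 37 genes whose symbol begins with mt- among the 55426 genes of the aortic RNA-Seq table, 13 for mRNAs, 2 for rRNAs and 22 for tRNAs. They were chosen by symbol alone, and the annotation (GENCODE vM21, genome build GRCm38) placed all of them on the mitochondrial genome of 16299 bases. The study compared whole thoracic aortas of 3 control mice with those of 3 mice lacking PRDM16, a transcription factor known from brown fat, in vascular smooth muscle cells (Prdm16SMKO). Control mice are labelled Prdm16f/f, with 2 floxed alleles of Prdm16 and no Cre named, and Prdm16SMKO mice carried the same alleles with SMMHC-CreERT2, a tamoxifen-inducible Cre recombinase under the promoter of smooth muscle myosin heavy chain. This transgene sits on the Y chromosome, so knockout mice that carry it are male, and the mice were on a C57BL/6J background. Tamoxifen was given at 75 mg/kg/day for 5 days from 8 weeks of age and was followed by 2 weeks without it; the age of the RNA-Seq mice and whether their controls received tamoxifen were not given in the sources used here. The study's methods also list Cre mice among its controls; where the sequenced controls had no Cre, as their label reads, Cre itself and any difference in tamoxifen cannot be told apart from the loss of PRDM16. Cre acts in smooth muscle only whereas endothelial, adventitial and fat cells of the aorta keep Prdm16. A second experiment provided lists of Flag-PRDM16 ChIP-Seq peaks from primary vascular fibroblasts of wild-type mice that had received lentivirus for Flag-tagged PRDM16 or an empty vector.

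Mitochondrial DNA is a small circular genome that is inherited apart from the chromosomes and transcribed by its own polymerase. Both strands are read as long precursor RNAs, and the tRNAs that lie between most of the other genes are cut out to free the mRNAs and rRNAs. All 13 proteins are subunits of the respiratory chain or of ATP synthase, where they are assembled with many more subunits made from nuclear genes. Complex I (NADH dehydrogenase) has 7 of them, complex III (cytochrome bc1) has 1, complex IV (cytochrome c oxidase) has 3 and complex V (ATP synthase) has 2. In the artery wall the respiratory chain supplies ATP and signals through oxidants, and in brown fat around the aorta it is especially abundant and serves heat production.

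The reference sequence itself bears on how these genes can be measured, and 3 features of it are shown here. Their part in the values below was not tested. The first is the overlap of mt-Atp8 and mt-Atp6, which share 43 bases of a common mRNA (chrM:7927-7969, GRCm38, plus strand, RefSeq sequence). Capitals mark the first codon of mt-Atp6:
mt-Atp8/mt-Atp6 overlap: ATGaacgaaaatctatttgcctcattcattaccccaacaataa

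The second is a copy of mitochondrial DNA inside chromosome 1 (chr1:24611535-24616188, minus strand). It is 4654 bases long, matches bases 6390 to 11042 of the mitochondrial genome at 99.9% identity, and holds 7 annotated pseudogenes, each matching a different mitochondrial mRNA gene. The first 60 bases of mt-Atp6 (chrM:7927-7986) and of its pseudogene Gm10925 (chr1:24614592-24614651, minus strand) are identical, with the first codon in capitals:
mt-Atp6: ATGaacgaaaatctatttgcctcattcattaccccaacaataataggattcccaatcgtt
Gm10925: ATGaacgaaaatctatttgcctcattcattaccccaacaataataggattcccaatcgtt
Over the whole copy only 3 differences were found. These were A6393T in mt-Co1, T9461C in mt-Nd3 and 1 added A in mt-Tr, with positions counted from base 1 of the mitochondrial genome, the mitochondrial base written first and the copy's base last. Those in mt-Nd3 and mt-Tr are shown with the differing or added base in capitals (chrM:9446-9476 and chrM:9814-9843, against chr1:24613102-24613132 and chr1:24612734-24612764):
mitochondrial genome at mt-Nd3: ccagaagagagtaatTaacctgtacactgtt
chromosome 1 copy of mt-Nd3: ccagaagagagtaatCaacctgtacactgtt
mitochondrial genome at mt-Tr: ttagtttaaaaaaaattaatgatttcgact
chromosome 1 copy of mt-Tr: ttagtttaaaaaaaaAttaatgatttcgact
mt-Co2, mt-Atp8, mt-Atp6, mt-Co3 and mt-Nd4l lie whole within the copy without any difference, as do 876 bases of mt-Nd4, whose remaining bases lie outside it. A read from these stretches therefore fits both places equally well.

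The third feature is the length of the tRNA genes, which is 59 to 75 bases and thus less than the read length of 151 bp. Shown are mt-Tf, the first gene of the genome, and mt-Tl1, which lies between mt-Rnr2 and mt-Nd1 (chrM:1-68 and chrM:2676-2750):
mt-Tf: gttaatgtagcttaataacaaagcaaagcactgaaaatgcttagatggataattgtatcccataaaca
mt-Tl1: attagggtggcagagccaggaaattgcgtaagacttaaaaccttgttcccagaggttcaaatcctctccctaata

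All 22 tRNA genes were listed at 0 in all 6 aortas, so that none could be ranked above another. The same held for other short genes of the table. Of the 2425 other genes of up to 100 bases, 0 were above 0 in any aorta, compared with 1.74% of 4373 genes of 101 to 200 bases and 71.8% of 30232 genes over 1000 bases. These zeros describe what the library and the quantification retained, and no level of mitochondrial tRNA could be read from them. The remaining 15 members, 13 mRNAs and 2 rRNAs, had a mean of at least 0.5 TPM (a level per gene length, scaled to the same total in each aorta) and entered the test. TPM keeps no sequencing depth, so the counting error behind these levels is unknown, and each n below is 1 library from 1 aorta.

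As a check of the labels, Prdm16 itself was at 56.1, 47.6 and 40.3 TPM in control aortas 1 to 3 and at 23.3, 33.3 and 23.4 TPM in Prdm16SMKO aortas, a log2 fold change of -0.85 ± 0.18 (SE) with an adjusted p of 0.072 in limma. The groups did not overlap, although the difference missed the threshold of 0.05. Myh11, the smooth muscle marker, was at 2612 to 3379 TPM in control and 1990 to 2913 TPM in Prdm16SMKO aortas, and Ucp1, the heat-producing carrier of brown fat mitochondria, ranged from 15.3 to 127 TPM over the 6 aortas. In the whole table limma called 168 of 15668 genes at an adjusted p under 0.05, 61 higher (0.389%) and 107 lower (0.683%) in Prdm16SMKO aortas, and log2 fold changes over the table had a median of -0.12.

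Mitochondrial RNA was listed at a share of TPM that varied widely among aortas. The 37 genes together held 14.7%, 22.2% and 20.2% of all TPM in control aortas 1, 2 and 3, and 16.1%, 19.95% and 26.5% in Prdm16SMKO aortas 1, 2 and 3. The lowest share was in a control aorta and the highest in a Prdm16SMKO aorta, but the groups overlapped over most of their range. The mean was 19.0% ± 3.89 (SD, n = 3) in control and 20.9% ± 5.22 in Prdm16SMKO aortas, a difference of 1.85 percentage points that was within the spread of either group (exact permutation test, 2-sided, p = 0.7, where 3 against 3 allows no p below 0.1). The sign of this difference rested on single aortas, being -0.32 points without control 1 and -0.96 points without Prdm16SMKO 3. The mRNAs carried nearly all of the share, with 14.3% to 25.6% of TPM, and the 2 rRNAs held 0.41% to 1.07%. The size of the share rests on the unit, since TPM counts a short gene as much as a long one. Without the short genes mt-Atp8 and mt-Nd4l it was 8.50% to 15.8%. With each TPM weighted by the length of all annotated exons of its gene, it was 3.17% to 7.01%. That length can exceed the length of the transcripts present, and genes without an annotation match were left out. The groups overlapped under both alternatives, which were chosen after the data were seen.

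**Figure D1:**
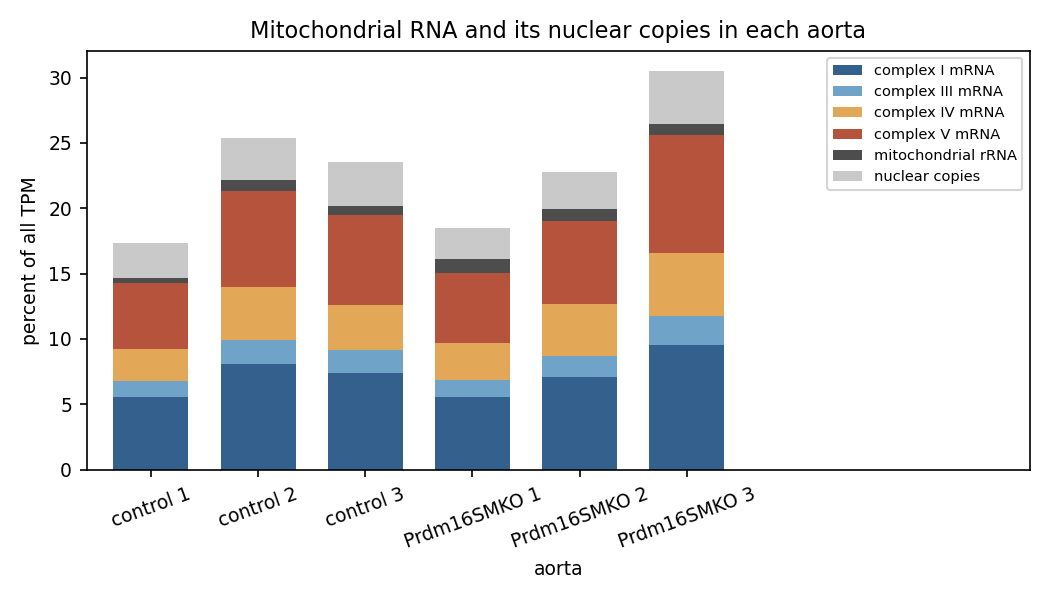
Percent of all TPM (y axis) held by mitochondrial mRNAs of each respiratory complex, by mitochondrial rRNA and by the annotated nuclear copies of mitochondrial genes in each of the 6 aortas (x axis). The coloured parts of control 1 and Prdm16SMKO 1 are the lowest, at 14.7% and 16.1%, and that of Prdm16SMKO 3 is the highest, at 26.5%.

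Markers of fat, which can adhere to the aorta, differed among the same aortas. A list of 11 adipocyte markers, not all of them particular to brown fat, was summed. The sum was 448, 1871 and 911 TPM in control and 633, 539 and 1354 TPM in Prdm16SMKO aortas. Fabp4 alone was at 294, 1078 and 507 TPM in control and 373, 337 and 722 TPM in Prdm16SMKO aortas. Control 2 and Prdm16SMKO 3, with the highest mitochondrial shares of their groups, also had the highest marker sums. The order did not hold throughout: Prdm16SMKO 2 had a higher share than Prdm16SMKO 1 (19.95% against 16.1%) but the lower marker sum. Of the 11 markers 10 were tested, 0 were called, and 0 were at 0 in all aortas. Of the 10, 7 had a negative log2 fold change. Of the 10, Dio2 alone (10%) was lower without overlap, against 14.9% of all tested genes. Its means were 20.3 TPM in control and 11.4 TPM in Prdm16SMKO aortas. Pparg, with means of 8.17 and 11.0 TPM, overlapped. Markers of smooth muscle summed to 20792 to 24248 TPM in control and 13889 to 17933 TPM in Prdm16SMKO aortas, without overlap and with 0 of 8 called. The members were mixed. Acta2 alone had means of 11569 and 7512 TPM. Of the 8, 4 were lower without overlap, a pattern shown by 14.9% of all tested genes. Myh11 and Smtn overlapped, and Myocd had means of 93.2 and 111 TPM with overlap. Des, with means of 52.0 and 70.2 TPM, was higher without overlap, as were 4.08% of all tested genes. Over the 7 marker lists 1 of 50 tested genes was called, against 1.07% of all tested genes. This was Tnnt2 (cardiac troponin T; singled out after its values were seen), with a mean of 24.1 TPM in control and 496 TPM in Prdm16SMKO aortas, while the other 7 of the 8 tested skeletal and cardiac muscle markers had negative log2 fold changes. In whole aorta, fewer cells of a type and less RNA per cell cannot be told apart, and the part of these markers in the mitochondrial values was not tested.

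Among single members, 0 of 15 were called, against 1.07% of all tested genes. All 15 had a positive log2 fold change, with a median of 0.10 against -0.12 over the table, although this was not a stable direction: 10 of the 15 turned negative without control 1, 10 without Prdm16SMKO 3, and 5 under quantile normalization. The adjusted p ranged from 0.28 to 0.99 (limma, Benjamini-Hochberg over 15668 genes), and 2 members, the rRNAs, had an unadjusted p under 0.05, compared with 12.7% of all tested genes. Only mt-Rnr1 of the 15 had all Prdm16SMKO aortas above all control aortas, a pattern shown by 4.08% of all tested genes.

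**Figure D2:**
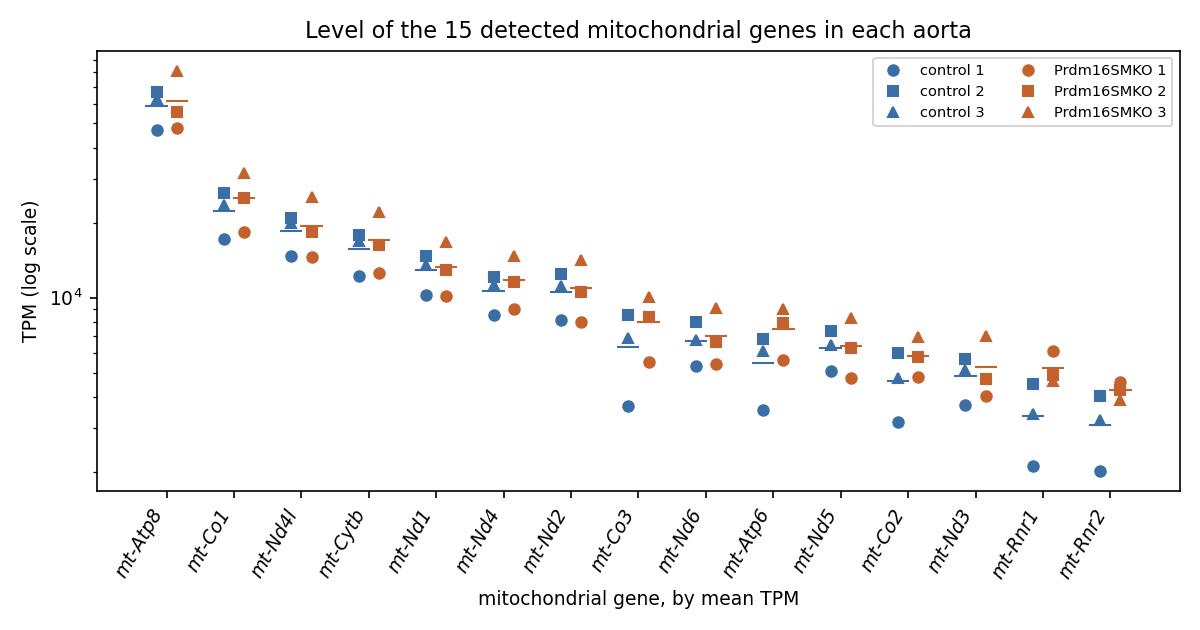
TPM on a log scale (y axis) of the 15 detected mitochondrial genes (x axis, in order of mean TPM), with 1 point for each aorta and a line at each group mean. Points of the 2 groups overlap for every gene except mt-Rnr1, where the lowest Prdm16SMKO aorta (4650) is above the highest control aorta (4492).

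Among the 7 complex I mRNAs, which encode the proton-pumping membrane arm of the complex, the means of the groups lay within 0.14 of each other on the log2 scale. mt-Nd1 (chrM:2751-3707) was at 10289, 14752 and 13582 TPM in control and 10152, 12890 and 16737 TPM in Prdm16SMKO aortas. mt-Nd2 (chrM:3914-4951) was at 8136, 12387 and 11169 TPM in control and 8001, 10542 and 14116 TPM in Prdm16SMKO aortas. In both genes control 1 and Prdm16SMKO 1 were low and Prdm16SMKO 3 was high, and the log2 fold change was 0.03 ± 0.21 for mt-Nd1 and 0.03 ± 0.23 for mt-Nd2 (SE).

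mt-Nd4 (chrM:10167-11544) was at 8515, 12098 and 11210 TPM in control and 9012, 11542 and 14728 TPM in Prdm16SMKO aortas, and its log2 fold change of 0.14 ± 0.20 was the largest of complex I. mt-Nd4l (chrM:9877-10173), whose last 7 bases are also the first of mt-Nd4, was at 14705, 20836 and 19940 TPM in control and 14539, 18414 and 25368 TPM in Prdm16SMKO aortas. The 2 genes share an mRNA, yet the shorter was listed at 1.60 to 1.78 times the TPM of the longer. mt-Nd3 (chrM:9459-9806) was at 3714, 5686 and 5135 TPM in control and 4021, 4723 and 7002 TPM in Prdm16SMKO aortas. Its mean over the 6 aortas was the lowest of the mRNAs as deposited, although mt-Co2 had the lower mean in control aortas (4639 against 4845 TPM).

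mt-Nd5 (chrM:11742-13565) was at 5072, 7328 and 6437 TPM in control and 4742, 6280 and 8266 TPM in Prdm16SMKO aortas. mt-Nd6 (chrM:13552-14070), the only mRNA gene on the other strand, was at 5323, 7995 and 6770 TPM in control and 5419, 6654 and 9069 TPM in Prdm16SMKO aortas. The level of mt-Nd6 was 1.05 to 1.14 times that of mt-Nd5 in every aorta. These genes face each other and overlap by 14 bases, shown here because the same letters belong to the ends of both (chrM:13552-13565, plus strand, all bases shared):
mt-Nd5/mt-Nd6 overlap: TTAATCTCGAGTAA
The library kit named for these samples does not mark strand as far as its name tells, and the setting used for counting was not given in the sources used here, so reads of mt-Nd6 and reads of transcripts from the opposite strand cannot be told apart.

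mt-Cytb (chrM:14145-15288), the cytochrome b of complex III, was at 12271, 17893 and 16926 TPM in control and 12586, 16259 and 22057 TPM in Prdm16SMKO aortas. Its log2 fold change was 0.09 ± 0.22, and the order of the aortas was that of the mRNA total.

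In complex IV, mt-Co1 (chrM:5328-6872), the catalytic subunit, was at 17132, 26303 and 23432 TPM in control and 18368, 25201 and 31497 TPM in Prdm16SMKO aortas, a log2 fold change of 0.16 ± 0.23. The other two subunits, mt-Co2 (chrM:7013-7696), which receives electrons from cytochrome c, and mt-Co3 (chrM:8607-9390), varied more. mt-Co2 was at 3159, 6006 and 4751 TPM in control and 4794, 5771 and 6942 TPM in Prdm16SMKO aortas, with a log2 fold change of 0.36 ± 0.23. mt-Co3 was at 3687, 8517 and 6902 TPM in control and 5543, 8366 and 10065 TPM in Prdm16SMKO aortas, with a log2 fold change of 0.37 ± 0.31. For both genes control 1 was far below the other control aortas, and without it the log2 fold changes were 0.11 and 0.02.

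In complex V, mt-Atp6 (chrM:7927-8607), a subunit of the proton channel, was at 3560, 6805 and 6110 TPM in control and 5618, 7914 and 9021 TPM in Prdm16SMKO aortas. Its log2 fold change of 0.48 ± 0.26 was the largest of the 13 mRNAs and did not pass the test (adjusted p = 0.48 in limma). Without control 1 the log2 fold change was 0.19. mt-Atp8 (chrM:7766-7969), the smallest of the mRNA genes at 204 bases, was at 46967, 66619 and 62611 TPM in control and 47848, 55786 and 81262 TPM in Prdm16SMKO aortas. It had the highest mean of all members, 60182 TPM, and its log2 fold change was 0.05 ± 0.22. The 2 reading frames share an mRNA and 43 bases. Yet mt-Atp8 was listed at 9.79 to 13.2 times the TPM of mt-Atp6 in control and at 7.05 to 9.01 times in Prdm16SMKO aortas. The groups did not overlap (exact permutation test, p = 0.1, n = 3 against 3, the smallest this design gives). The ratio was not among the planned tests, and its p was not adjusted.

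In order of mean TPM, mt-Atp8 (60182) was followed by mt-Co1 (23655), mt-Nd4l (18967), mt-Cytb (16332), mt-Nd1 (13067), mt-Nd4 (11184), mt-Nd2 (10725), mt-Co3 (7180), mt-Nd6 (6872), mt-Atp6 (6505), mt-Nd5 (6354), mt-Co2 (5237), mt-Nd3 (5047), mt-Rnr1 (4284) and mt-Rnr2 (3666). Within an aorta, the gene with the higher mean was the higher one in all 6 aortas for 7 of the 14 pairs of neighbours. These included the 5 leading genes in their order down to mt-Nd4, whereas mt-Atp6 against mt-Nd5 and mt-Co2 against mt-Nd3 were split, with 3 aortas each way. Across aortas only mt-Atp8 and mt-Co1 had ranges that did not overlap, the lowest mt-Atp8 value of 46967 being above the highest mt-Co1 value of 31497. The order also depends on the nuclear copies: with the TPM of annotated copies added, mt-Atp6 moves from rank 10 to 3 (mean 20813 TPM), mt-Co2 from 12 to 8 (12391 TPM), and mt-Co3 from 8 to 9 although its mean is then 11809 TPM. The 2 shortest mRNA genes, of 204 and 297 bases, ranked 1 and 3. The 2 rRNAs, which in living cells are made in excess of the mRNAs, came last in these poly(A)-selected libraries.

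The mitochondrial mRNAs moved together from aorta to aorta. The SD of log2 TPM over the 6 aortas had a median of 0.32 over the 13 mRNAs, compared with 0.27 over all 15668 tested genes and 0.20 over 47 nuclear genes with a mean of at least 1000 TPM. Each mRNA was then expressed as a part of the mRNA total of its aorta, which includes that mRNA (mt-Atp8 held 29.3% to 33.0%). No other set of genes was scaled to its own total for comparison. As parts of the total the mRNAs had a median SD of 0.05, with mt-Cytb the steadiest at 0.02. 3 genes were far less steady than the rest on that scale: mt-Co3 at 0.26, mt-Atp6 at 0.25 and mt-Co2 at 0.20, whereas the other 10 were between 0.02 and 0.06. These 3 genes lie whole and without a difference in the chromosome 1 copy, as do the steady mt-Atp8 (0.06), which has no annotated copy gene, and mt-Nd4l (0.04), whose copy was listed at 462 TPM on average. The pseudogenes of the 3 less steady genes had the highest means of all copies, between 4629 and 14308 TPM.

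The TPM listed under those pseudogenes was high. Gm10925, the copy of mt-Atp6, was at 11905, 15851 and 15183 TPM in control and 11021, 13289 and 18600 TPM in Prdm16SMKO aortas, more than mt-Atp6 itself in every aorta. Gm28661 (chr1:24614885-24615565), the copy of mt-Co2, had a mean of 7151 TPM, Gm28437 (chr1:24613189-24613971), the copy of mt-Co3, 4629 TPM, and Gm28439 (chr1:24611535-24612410), the partial copy of mt-Nd4, 3833 TPM. The copies of mt-Nd4l (Gm10222), mt-Co1 (Gm29216) and mt-Nd3 (Gm28438) had means of 462, 353 and 125 TPM. Copies on chromosomes 2 and 13, which match at 97.4% and 95.2%, were at means of 0.05 to 4.29 TPM, and mt-Atp8 has no annotated copy gene although its sequence lies within the same stretch of chromosome 1. All annotated copies together held 2.33% to 4.07% of TPM.

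The split between a gene and its copy was not the same in all aortas. For mt-Atp6, 77.0%, 70.0% and 71.3% of the summed TPM of gene and copy was listed under the copy in control aortas and 66.2%, 62.7% and 67.3% in Prdm16SMKO aortas, without overlap (exact permutation p = 0.1, n = 3 against 3; adjusted p = 0.56 over 7 genes). For mt-Co2 the share under the copies was 65.2%, 53.1% and 63.0% in control and 51.3%, 56.1% and 58.2% in Prdm16SMKO aortas. For mt-Co3 it was 58.1%, 33.5% and 43.1% in control and 40.9%, 30.3% and 36.1% in Prdm16SMKO aortas. Control 1 had the largest share under copies for each of these genes, and it was also the aorta with the lowest TPM of each. For mt-Nd4 the share was 22.9% to 28.5%, and for mt-Nd4l, mt-Nd3 and mt-Co1 it was 1.26% to 3.90%.

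**Figure D3:**
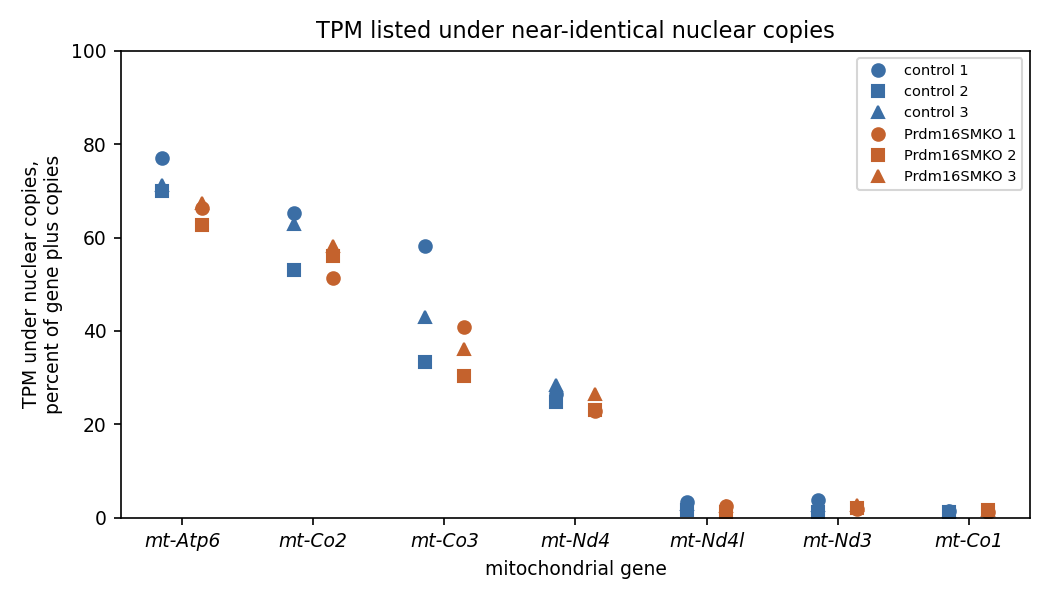
TPM listed under annotated nuclear copies as a percent of the TPM of the mitochondrial gene plus its copies (y axis, from 0 to 100) for the 7 genes with a copy on chromosome 1 (x axis), 1 point for each aorta. mt-Atp6, mt-Co2 and mt-Co3 stand between 30.3% and 77.0%, and for mt-Atp6 the 3 Prdm16SMKO aortas are below the 3 control aortas.

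Adding the copies to their genes, an alternative chosen after the data were seen, brought the members closer together. mt-Atp6 with its copy was at 15465, 22657 and 21293 TPM in control and 16639, 21203 and 27621 TPM in Prdm16SMKO aortas, and its log2 fold change became 0.13 ± 0.21 in place of 0.48. That of mt-Co3 became 0.13 ± 0.21 and that of mt-Co2 0.18 ± 0.21. The 13 mRNAs then had log2 fold changes between 0.01 and 0.18, with 0 of 15 members called (limma, adjusted p of 0.27 to 0.99). The mt-Atp8 to mt-Atp6 ratio became 2.94 to 3.04 in control and 2.63 to 2.94 in Prdm16SMKO aortas, so that the groups overlapped. The mt-Nd4l to mt-Nd4 ratio, which overlapped as deposited, went the other way. With the copy added to mt-Nd4 it was 1.268 to 1.294 in control and 1.228 to 1.265 in Prdm16SMKO aortas. These groups did not overlap (exact permutation p = 0.1, n = 3 against 3).

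**Figure D4:**
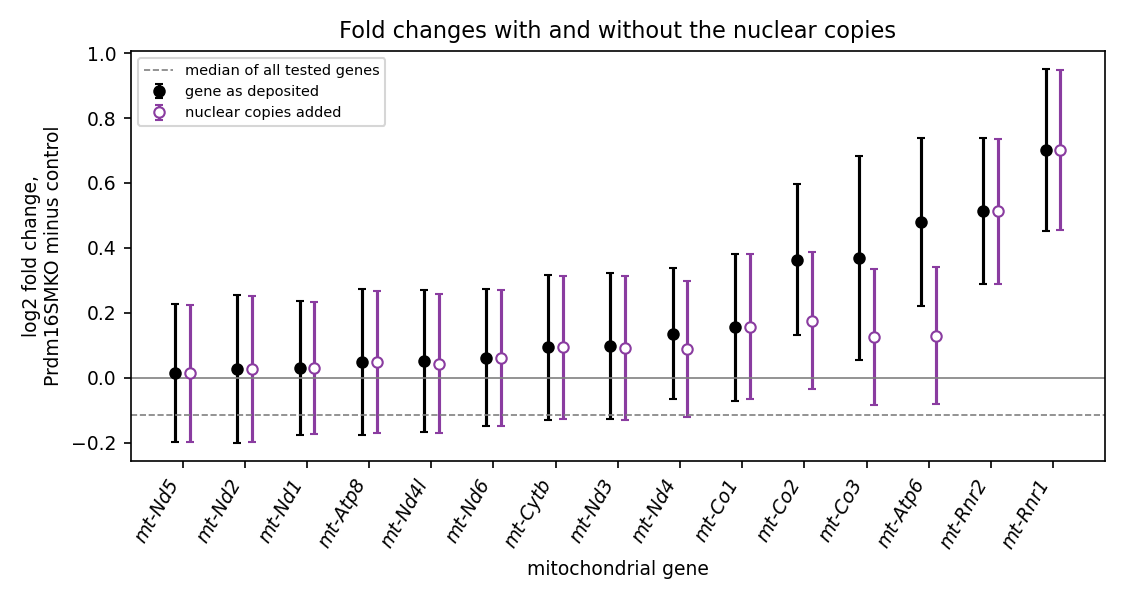
Log2 fold change of Prdm16SMKO against control aortas (y axis, on log2(TPM + 0.1), with SE bars, n = 3 against 3) of the 15 detected genes (x axis), as deposited (filled) and with annotated nuclear copies added (open). mt-Atp6, mt-Co3 and mt-Co2 drop from 0.48, 0.37 and 0.36 to 0.13, 0.13 and 0.18, and the 2 rRNAs stay at 0.70 and 0.51. The dashed line is the median of all tested genes, -0.12.

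The makeup of the mitochondrial mRNA pool was compared next, by complex and by gene. Complex I genes held 39.1%, 38.0% and 38.1% of it in control and 37.1%, 37.3% and 37.2% in Prdm16SMKO aortas, a difference of -1.20 percentage points without overlap (exact permutation p = 0.1, n = 3 against 3; adjusted p = 0.4 over 4 complexes). With copies added the difference was -0.80 points, again without overlap. Complex IV genes held 16.8%, 19.1% and 18.0% in control and 19.1%, 20.7% and 18.9% in Prdm16SMKO aortas (difference of 1.56 points, exact permutation p = 0.3, n = 3 against 3). With copies added the complex IV groups did not overlap, at 20.8% to 21.3% in control and 21.7% to 23.2% in Prdm16SMKO aortas (difference of 1.08 points, exact permutation p = 0.1, n = 3 against 3). Complex III was at 8.35% to 8.68% and complex V at 33.5% to 35.5% of the pool in all aortas, with group differences of -0.06 and -0.31 points. The complex V value rests on mt-Atp8: without mt-Nd6, mt-Atp8 and mt-Nd4l the share, then that of mt-Atp6 alone, was 4.71% to 5.78% in control and 6.42% to 7.23% in Prdm16SMKO aortas, a difference of 1.39 points without overlap (exact permutation p = 0.1, n = 3 against 3).

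Of the single mRNAs as deposited, 4 of 13 had parts of the pool that did not overlap between groups, a pattern shown on that scale by 5.59% of all tested genes, which are not parts of the pool. mt-Atp6 was higher in Prdm16SMKO aortas, with 3.52% to 4.16% of the pool against 2.50% to 3.19% in control aortas. mt-Nd1 was lower, at 6.53% to 6.77% against 6.92% to 7.22%, as were mt-Nd2, at 5.31% to 5.54% against 5.71% to 5.81%, and mt-Nd5, at 3.148% to 3.2996% against 3.3014% to 3.56%. With copies added, mt-Nd2 and mt-Nd5 overlapped between groups, mt-Nd1 remained lower, mt-Co3 became higher without overlap (5.30% to 5.49% against 5.20% to 5.29%), and mt-Atp6 was apart by little, its lowest Prdm16SMKO value being 9.306% and its highest control value 9.297%. In limma on TPM relative to the mRNA total, 0 of 15 members were called (0.906% of all tested genes), and 1, mt-Rnr1, had an unadjusted p under 0.05. That fit estimates the spread of a gene partly from genes of like level, and it gave mt-Cytb an SE of 0.19 although the parts held by mt-Cytb had an SD of 0.02 on the log2 scale, so it could not resolve differences as small as those between these parts.

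The mitochondrial rRNAs, which form the core of the ribosome that translates all 13 mRNAs, showed the largest difference between groups. mt-Rnr1 (12S rRNA of the small subunit, chrM:70-1024) was at 2113, 4492 and 3421 TPM in control and 6120, 4907 and 4650 TPM in Prdm16SMKO aortas. Every Prdm16SMKO aorta was above every control aorta, with means of 3342 ± 1191 and 5225 ± 785 TPM (SD, n = 3), and the log2 fold change of 0.70 ± 0.25 did not pass the test (adjusted p = 0.28 in limma). mt-Rnr2 (16S rRNA of the large subunit, chrM:1094-2675) was at 2016, 4026 and 3223 TPM in control and 4580, 4281 and 3874 TPM in Prdm16SMKO aortas. Control 2 exceeded Prdm16SMKO 3, and the log2 fold change was 0.51 ± 0.23 (adjusted p = 0.39 in limma). Without control 1 the log2 fold changes were 0.40 for mt-Rnr1 and 0.23 for mt-Rnr2.

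The rRNAs did not follow the mRNAs. Their sum was 2.90%, 3.99% and 3.41% of the 13-mRNA total in control and 7.10%, 4.83% and 3.33% in Prdm16SMKO aortas. Prdm16SMKO 1 and 2 stood above all control aortas whereas Prdm16SMKO 3 was among them, and the mean log2 ratio was 0.51 higher in Prdm16SMKO aortas (exact permutation test, 2-sided, p = 0.3, n = 3 against 3). Without Prdm16SMKO 1 the difference was 0.24. The ratio of mt-Rnr1 to mt-Rnr2 was 1.05, 1.12 and 1.06 in control and 1.34, 1.15 and 1.2002 in Prdm16SMKO aortas. The groups did not overlap (exact permutation p = 0.1, n = 3 against 3). This ratio was not among the planned tests, and its p was not adjusted.

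Some other RNAs that lack a long poly(A) tail were also highest in Prdm16SMKO 1. Rn7s1, the RNA of the signal recognition particle, was at 1667, 3475 and 2411 TPM in control and 12958, 9010 and 3745 TPM in Prdm16SMKO aortas (log2 fold change 1.66 ± 0.42, adjusted p = 0.13 in limma). Rn7sk, a nuclear RNA that restrains transcription elongation, was at 1388, 1308 and 1044 TPM in control and 4017, 2964 and 1495 TPM in Prdm16SMKO aortas (log2 fold change 1.08 ± 0.31, adjusted p = 0.18 in limma). In both, as in the rRNA to mRNA ratio, Prdm16SMKO 1 was highest, Prdm16SMKO 2 followed and Prdm16SMKO 3 was lowest of its group. Among control aortas the ratio and Rn7s1 were highest in control 2, whereas Rn7sk was highest in control 1. Rn7s2, another RNA of the signal recognition particle, was at 3331, 2086 and 3214 TPM in control and 5831, 3604 and 2497 TPM in Prdm16SMKO aortas, with overlap. The structural RNA genes AY036118, Rmrp and Rpph1 were also highest in Prdm16SMKO 1, at 30760, 874 and 651 TPM, and overlapped between groups. Malat1, a nuclear-retained RNA, was instead highest in Prdm16SMKO 2 (3411 TPM), with 2527 TPM in Prdm16SMKO 1. CT010467.1, annotated as rRNA, alone held 20.2% to 28.2% of TPM and was highest in Prdm16SMKO 1, while Prdm16SMKO 2 (20.8%) and 3 (22.8%) were within the range of control aortas. These genes were singled out after their values were seen, and their part in the result was not tested.

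**Figure D5:**
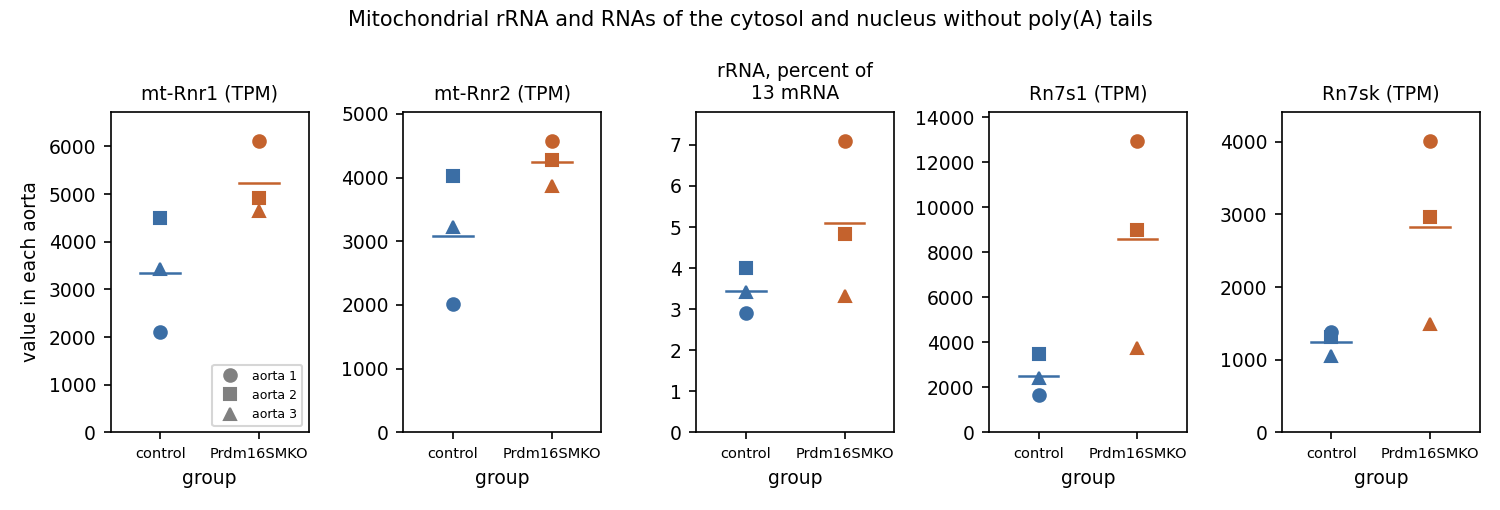
TPM of mt-Rnr1 and mt-Rnr2, their sum as a percent of the 13 mitochondrial mRNAs, and TPM of Rn7s1 and Rn7sk (y axes) in control and Prdm16SMKO aortas (x axis), with 1 point for each aorta and a line at each group mean. The ratio is highest in Prdm16SMKO 1 (7.10%) and Prdm16SMKO 2 (4.83%), which are also the highest aortas for Rn7s1 and Rn7sk.

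Nuclear genes that serve the mitochondrial genome gave no call. The lists covered its maintenance and transcription, RNA processing, translation and nuclear regulators, and also the nuclear subunits of complexes I to V. Over 9 lists with 160 tested genes 0 were called (limma, against 1.07% of all tested genes), and 6 had an unadjusted p under 0.05, against 12.7% of all tested genes. Tfam, which packages mitochondrial DNA and starts its transcription, was at 20.5, 21.0 and 13.04 TPM in control and 22.9, 17.2 and 16.8 TPM in Prdm16SMKO aortas (log2 fold change 0.08 ± 0.21). Polrmt, the mitochondrial RNA polymerase, was at 9.22, 7.56 and 8.78 TPM in control and 10.7, 8.68 and 8.75 TPM in Prdm16SMKO aortas (0.14 ± 0.16). Neither differed beyond its spread, and their list of 23 genes had a median of -0.09, with Primpol, a primase and polymerase, lowest at -0.89 ± 0.22 (adjusted p = 0.11 in limma) and Mterf1a, a termination factor, highest at 0.16.

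Lrpprc, which stabilizes mitochondrial mRNAs, was at 13.7, 12.4 and 10.6 TPM in control and 10.2, 11.0 and 11.2 TPM in Prdm16SMKO aortas (log2 fold change -0.17 ± 0.15). The 30 tested genes of RNA processing and stability had a median of -0.15 and ran from Trub2, a pseudouridine synthase, at -0.54 to Trit1, a tRNA-modifying enzyme, at 0.27. The 13 translation factors had a median of -0.12, from Gfm1, an elongation factor, at -0.26 to Mtrf1l, a release factor, at 0.33. All of these medians were near that of all tested genes. Ppargc1a, a coactivator of mitochondrial biogenesis that is known to work with PRDM16 in brown fat, was at 1.71, 1.62 and 2.36 TPM in control and 2.60, 1.91 and 3.00 TPM in Prdm16SMKO aortas (0.38 ± 0.28), the largest of the 14 nuclear regulators, and Gabpb1, a subunit of a nuclear respiratory factor, was lowest at -0.39.

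The nuclear partners of the mitochondrial subunits, counted among the 160 genes above, had no call but lay lower than the mitochondrial genes. All 37 nuclear complex I subunits had a negative log2 fold change, as did 67.9% of all tested genes, and under median ratio scaling the numbers were 32 of 37 and 49.3%. On TPM as deposited, their log2 fold changes had a median of -0.19. The mitochondrial values were 0.05 to 0.14 for mt-Nd3, mt-Nd4, mt-Nd4l and mt-Nd6 and 0.01 to 0.03 for mt-Nd1, mt-Nd2 and mt-Nd5. Under median ratio scaling the nuclear median was -0.07, against 0.17 to 0.26 for the former and 0.14 to 0.15 for the latter mitochondrial genes. In 14 of the 37 nuclear subunits (37.8%), on TPM as deposited, all Prdm16SMKO aortas were below all control aortas. This pattern was shown by 14.9% of all tested genes, and the reverse by 4.08%. The count was not made under median ratio scaling. Ndufv3, an accessory subunit of the matrix arm, was at 188, 181 and 163 TPM in control and 126, 136 and 130 TPM in Prdm16SMKO aortas (-0.44 ± 0.10, adjusted p = 0.10 in limma), and Ndufa11, at -0.08, was nearest to 0.

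For complex V, Atp5e, a subunit of the catalytic head, was at 164, 187 and 168 TPM in control and 113, 130 and 134 TPM in Prdm16SMKO aortas (-0.46 ± 0.11, adjusted p = 0.11 in limma). Its list of 16 genes had a median of -0.16, with Atp5g2, of the rotating ring, at -0.02, and 3 genes (18.8%) were lower without overlap, near the 14.9% of all tested genes. Complex III subunits had a median of -0.17, from Uqcrq at -0.26 to Uqcr10 at -0.03, and complex IV subunits a median of -0.14, from Cox5a at -0.23 to Cox7b at 0.20. None of these subunits of complexes III and IV was without overlap. Complex II, which has no mitochondrially encoded subunit, had a median of -0.07, from Sdhb, its iron-sulfur subunit, at -0.28 to Sdhc, a membrane anchor, at 0.28. The difference between mitochondrial and nuclear subunits was not tested.

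PRDM16 peaks in fibroblasts were absent from the mitochondrial genome. Of 11271 peaks from cells with Flag-PRDM16, 0 were on the mitochondrial chromosome and 0 within the 8 nuclear stretches that match it at 95% or more, and of 67 peaks from cells with the vector 0 were in either place. There was 1 library for each condition, and whether reads from these places were removed before peak calling was not given in the sources used here, so no absence of binding can be read from this. Among genes of the pathway, 7 of 23 for maintenance and transcription (30.4%), 6 of 30 for RNA processing (20%), 4 of 13 for translation (30.8%) and 5 of 14 regulators (35.7%) had a peak centred within 2 kb of a transcript start, compared with 40.1% of all tested genes. A peak at Tfam (chr10:71237750-71237986) was centred 190 bp from a start, with a fold enrichment of 4.57. Only 28.6% of all peaks had a lower one. Of the nuclear subunits, 9 of 37 in complex I (24.3%), 4 of 9 in complex III (44.4%), 4 of 14 in complex IV (28.6%) and 5 of 16 in complex V (31.2%) had such a peak.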

How the data were processed

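RNA-Seq of 6 thoracic aortas (3 control, 3 Prdm16SMKO) and peak lists from 2 ChIP-Seq libraries were used. Per the labels, RNA libraries were poly(A)-selected and sequenced paired-end. The table deposited by the authors holds TPM per gene, which keeps no depth; the submitters' processing notes name STAR 2.7.8a and RSEM 1.3.3 without roles, and GRCm38. How reads fitting several places were shared out and the strand setting were not given in the sources used here. The deposited peak lists (notes naming Bowtie2 2.3.4.1 and MACS2) give a fold enrichment ratio for each peak. Table columns named WT and KO were taken as control and Prdm16SMKO with the replicate number of the titles.

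Members were all genes whose symbol begins with mt-. Genes with a mean of at least 0.5 TPM were tested with limma 3.58.1 (R 4.3.3, trend) on log2(TPM + 0.1), which understates changes of low genes, with Benjamini-Hochberg adjustment over all 15668 genes and a threshold of 0.05. A second fit divided TPM by the 13-mRNA total of the aorta. Shares and ratios were compared with exact 2-sided permutation tests, adjusted only over the complexes and over the genes with a chromosome 1 copy. Ratios between single genes were not among the planned tests. The scripts were tested on simulated data. Nuclear copies were genes with an exon in a stretch matching the mitochondrial genome (blastn 2.17.0, at least 95% identity and 100 bases); this leaves out Myo3a, whose intron holds a match. Of the table's genes, 55154 matched GENCODE vM21. Named were all mRNA and rRNA members, any tRNA of at least 0.5 TPM, and of each nuclear list the called genes, the highest and the lowest, with Tfam, Polrmt, Lrpprc and Ppargc1a. Members and lists were chosen with earlier results of these data known. p-values refer to differences between these aortas only. Those of limma rest on a spread estimated partly from genes of like level. Other pseudocounts, filters, scalings, a replicate block and leaving out each aorta were tried.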

Additional observations from a re-analysis of the deposited data

How the results depend on the processing

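Under every alternative run, including each aorta left out, 0 members were called, in the fit on TPM (lowest adjusted p of a member 0.18 to 0.58 by setting, limma) and in the fit relative to the mRNA total (0.15 to 1). Directions were less firm. Leaving out each aorta in turn gave log2 fold changes of -0.15 to 0.21 for mt-Nd1, -0.18 to 0.23 for mt-Nd2, -0.13 to 0.27 for mt-Nd3, -0.041 to 0.31 for mt-Nd4, -0.16 to 0.24 for mt-Nd4l, -0.19 to 0.21 for mt-Nd5, -0.14 to 0.23 for mt-Nd6, -0.11 to 0.29 for mt-Cytb, -0.028 to 0.36 for mt-Co1 and -0.17 to 0.21 for mt-Atp8, the negative values coming without control 1 or Prdm16SMKO 3. Relative to the mRNA total the same ranges were -0.034 to 0.036 for mt-Nd3 and -0.024 to 0.0029 for mt-Cytb, and with copies added these were 0.0083 and 0.0104. Quantile normalization gave -0.038 for mt-Nd2, -0.055 for mt-Nd3, -0.23 for mt-Nd5, -0.16 for mt-Nd6 and -0.19 for mt-Co1, and 0 for 3 other members; it gives genes of the same rank the same value, which leaves little to compare among the highest genes. The share of TPM differed by -0.96 to 4.21 points without each aorta, the complex III share by -0.14 to 0.016 and the complex V share by -0.69 to 0.33; the complex III share differed by 0.053 with copies added, and the complex V share by 1.39 without mt-Nd6, mt-Atp8 and mt-Nd4l. The rRNA to mRNA ratio kept its sign throughout (0.24 to 0.78 without each aorta). Of the nuclear lists, quantile normalization alone gave a call, 1 gene (Sdhc); the cause was not tested.

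Over all genes, the 168 calls became 413 with median ratio scaling (200 higher and 213 lower in Prdm16SMKO), 392 with quantile normalization (189 and 203), 271 rescaled without mitochondrial genes (96 and 175), 110 without a filter, 48 without a trend and 29 to 92 without each aorta; rescaling without 7 structural RNA genes gave 139 (65 and 74). Median ratio scaling moved the median of all genes from -0.12 to 0.0046 and that of the 13 mRNAs from 0.09 to 0.22. Aortas of the same replicate number did not deviate alike from their group means (correlations of -0.02, -0.07 and -0.01 for numbers 1 to 3). Whether such aortas were handled together cannot be read from this. With a replicate block 184 genes and 0 members were called. Relative to the mRNA total the block gave 329 genes and 0 members, against 142 genes without it. Calls without a trend in that fit numbered 52. Alternatives with copies added, TPM weighted by length and structural RNA genes left out were chosen after seeing the data. Depth is unknown, and reads of genes with identical copies cannot be assigned.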
